A study of Mus with 2 samples.

Results

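Transcripts of immunoglobulin chains were followed through the cell clusters of kidneys from senescent and from young C57BL/6 mice. An antibody is built of paired heavy and light chains. B cells carry it first on their surface as IgM and IgD, and plasma cells, into which B cells mature, secrete it in large amounts. The genes were Igkc (kappa light chain), Iglc1, Iglc2 and Iglc3 (lambda light chains), Ighm, Ighd, Igha, Ighg2b and Ighg2c (heavy chains of IgM, IgD, IgA, IgG2b and IgG2c) and Jchain (the joining chain of IgA and IgM polymers). They were chosen by name, and each was sought in every cluster of the authors' deposited table. Of the 10 genes, 5 were listed, against 8191 distinct genes in the whole table, and they gave 11 of its 20111 entries for a gene in a cluster. Igkc was listed in 6 of 7 clusters, Ighm in 2, and Iglc2, Iglc3 and Ighd in cluster B only.

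Kidneys were digested to whole cell suspensions, and RNA of single cells was sequenced after capture in droplets, giving 1 library from senescent mice and 1 from young mice. The series states 4408 cells for the senescent mice and a larger number for the young mice. The sources used here do not give the ages, the sex, the number of mice per library or the number of cells per cluster. The values are the authors' means of scaled expression over the cells of a cluster, called levels below, and the authors' cluster labels were B, T, Marco, Neutro, PT, LOH and endo. With 1 library per group there is no spread between mice, so no value has an SD, no test between groups was run, and the authors' adjusted p measures spread between cells. A mean over a cluster cannot tell more cells with a transcript apart from more transcript per cell. The senescent and young columns were identified by the labels' descriptions. The table's own contrast name, C57 against WT with a code, does not name either group, so every direction rests on those descriptions.

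The table keeps an entry only at an authors' p under 0.05 together with an absolute log2 fold change of 0.36 or more, so a gene that is not listed is neither at 0 nor shown to be unchanged. Igha, Ighg2b, Ighg2c, Iglc1 and Jchain were listed in none of the 7 clusters. The genes of switched antibody classes and of the joining chain are therefore not described here. No variable, diversity or joining segment of the immunoglobulin loci was listed either, and cluster Neutro listed 0 of the 10 genes.

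In the mouse build GRCm38 (mm10), Igkc is annotated as a constant region gene on chromosome 6 from 70726435 to 70726754. Ighd and Ighm lie on chromosome 12, from 113407535 to 113416324 and from 113418826 to 113422730, with 2501 bases between them. Both are made from shared primary transcripts by alternative splicing, but their annotated spans do not overlap. How the authors' counting treated such shared transcripts is not stated in the sources used here. Iglc2 and Iglc3 lie on chromosome 16, from 19198536 to 19198852 and from 19065365 to 19065681. These lambda constant regions are near-identical copies, and the sources used here do not say how the authors' counting divided reads between them. The Iglc2 and Iglc3 values are uncertain for that reason.

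All 11 immunoglobulin entries had a higher mean in the senescent library, and 6 of them passed an adjusted p of 0.05 and an absolute log2 fold change of 1 in the authors' deposited table. Among all entries of the table, 20.9% passed both thresholds as higher and 14.1% as lower, and 0 immunoglobulin entries passed as lower. The share of listed genes with a higher mean was 78.4% in PT, 58.3% in Marco and 48.2% in endo. It was 47.8% in LOH, 44.8% in T and 28.2% in B. The 6 immunoglobulin entries that passed were Igkc in B, PT, Marco, LOH and endo, and Ighm in B. The 5 that did not pass were Igkc in T, Ighm in Marco, and Iglc2, Iglc3 and Ighd in B.

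Cluster B held the highest immunoglobulin levels in both libraries. The surface partners of the B cell receptor, Cd79a and Cd79b, were listed there, as were Ms4a1 (the surface protein CD20), Cd22 and the transcription factor gene Ebf1, and these 5 of 7 B cell markers were listed in no other cluster. Of 6 plasma cell markers, only Xbp1, which drives the secretory machinery and is used in many cell types, was listed in B. Its level was 0.845 in the senescent and 0.436 in the young library, and it did not pass the adjusted p.

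Igkc, the constant region of the kappa chain, reached a level of 120.3 in the senescent and 38.1 in the young library in B, a 3.16-fold difference with an adjusted p of 2.8e-09 in the authors' deposited table. It had the highest senescent level of all 3077 genes listed in B, and rank 17 among their young levels. Of the genes listed in B, 7.99% had a larger log2 fold change. In B, 2.79% of listed genes passed both thresholds as higher, and 2 of the 5 immunoglobulin genes did.

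Among the heavy chains, Ighm had a level of 22.6 in the senescent and 9.61 in the young library in B, 2.36-fold higher, with an adjusted p of 0.0188 in the authors' deposited table. Ighd, whose product is carried together with IgM by mature naive B cells, had 8.32 in the senescent and 3.78 in the young library, a 2.20-fold ratio with an adjusted p of 1 in the authors' deposited table. The levels of both heavy chains thus differed by similar factors. The ratio of Ighm to Ighd was 2.72 in the senescent and 2.54 in the young library.

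Among the lambda chains, Iglc2 had a level of 11.0 in the senescent and 3.86 in the young library in B, with an adjusted p of 0.721 in the authors' deposited table. Iglc3 had 8.50 in the senescent and 3.92 in the young library, with an adjusted p of 1 in the authors' deposited table. In the young library both copies were near the same level, and in the senescent library Iglc2 was the higher, with a ratio of Iglc2 to Iglc3 of 1.29 in the senescent and 0.987 in the young library. The ratio of Igkc to the sum of Iglc2 and Iglc3 was 6.18 in the senescent and 4.89 in the young library. Such ratios between genes carry gene-specific counting factors and are compared here only between libraries, or between clusters for the same pair of genes.

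The 5 genes together had a summed level of 170.7 in the senescent and 59.3 in the young library in B, of which Igkc made up 70.5% in the senescent and 64.3% in the young library. Their median log2 ratio, computed after adding 0.1 to each level, was 1.23, whereas the median over all genes listed in B was -0.89. A higher level was found for 5 of 5 immunoglobulin genes and for 28.2% of all genes listed in B.

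**Figure D1:**
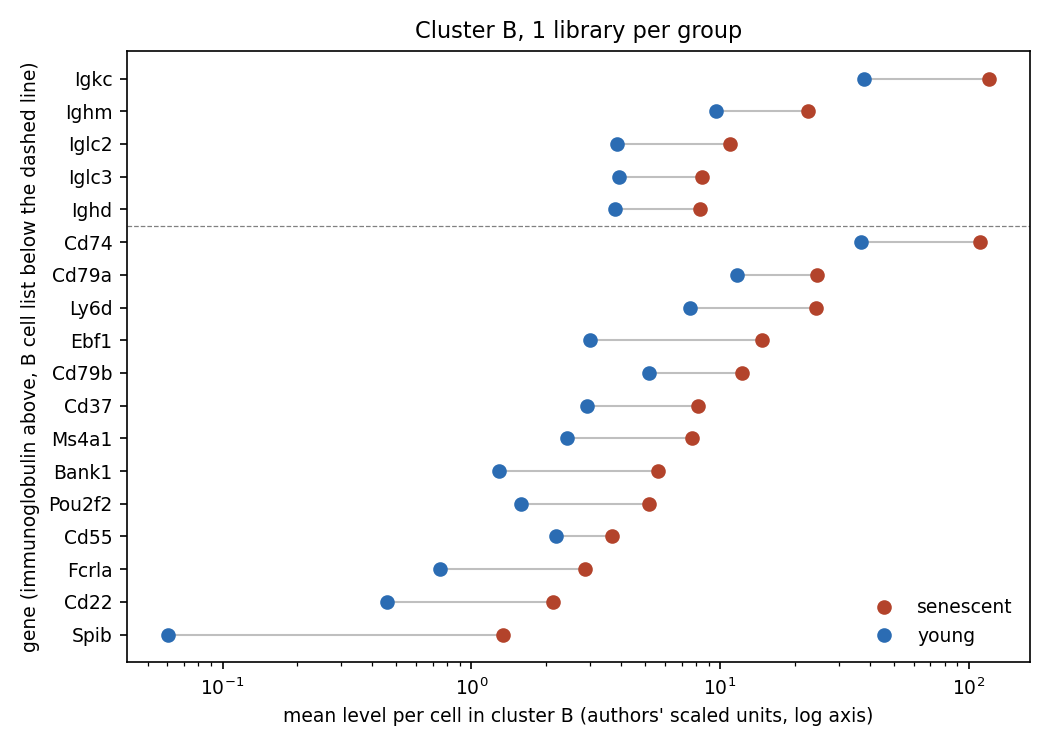
Levels in cluster B (x axis, the authors' scaled units, log axis) of the 5 listed immunoglobulin genes (above the dashed line) and the 13 listed genes of the B cell list (below it). Each point is the mean of 1 library, red for senescent and blue for young, and every gene has its red point to the right of the blue one, as for Igkc at 120.3 in the senescent and 38.1 in the young library.

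Other genes of B cells in the cluster also had higher senescent levels, so the immunoglobulin genes did not stand alone. Of a list of 22 B cell genes, 13 were listed in B, all 13 with a higher mean and 5 past both thresholds in the authors' deposited table, and their median log2 ratio was 1.65. Cd79a had a level of 24.5 in the senescent and 11.7 in the young library, and Cd79b had 12.3 in the senescent and 5.19 in the young library. Ebf1, a factor that fixes the B cell fate, had 14.7 in the senescent library, 4.90-fold its young level. Cd74, the invariant chain of MHC class II, had 110.5 in the senescent and 36.9 in the young library. The surface marker Ly6d had 24.2 in the senescent and 7.61 in the young library. The remaining 8, among them Ms4a1 (7.69 in the senescent and 2.42 in the young library) and Bank1, an adaptor of receptor signalling (5.64 in the senescent and 1.29 in the young library), did not pass. The levels of Cd37, Pou2f2, Cd55, Fcrla, Cd22 and Spib ranged between 1.34 (Spib) and 8.14 (Cd37) in the senescent library and between 0.0605 (Spib) and 2.93 (Cd37) in the young library.

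Proximal tubule transcripts moved the other way in the same cluster. All 10 proximal tubule markers were listed in B with lower senescent levels, with a summed level of 25.3 in the senescent and 652.6 in the young library, and 8 passed as lower in the authors' deposited table, as did 15.5% of all genes listed in B. Kap, an androgen-dependent gene of the proximal tubule, had 1.24 in the senescent and 498.7 in the young library, and so made up most of the young sum. In PT itself Kap was also lower, at 21.4 in the senescent and 719.1 in the young library. Of the 9 markers listed in PT, 3 had higher and 6 lower senescent levels. The part of these tubule transcripts in the immunoglobulin differences was not tested.

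To set the immunoglobulin genes against other transcripts of the cluster, each level was divided by the summed level of Cd79a and Cd79b, which was 36.8 in the senescent and 16.9 in the young library. This comparison was chosen after the values had been seen. The quotient for Igkc was 3.27 in the senescent and 2.25 in the young library, 1.45-fold higher. For Iglc2 it was 0.298 in the senescent and 0.229 in the young library, a ratio of 1.30. For Ighm it was 0.615 in the senescent and 0.568 in the young library. Ighd had a quotient of 0.226 in the senescent and 0.223 in the young library, and Iglc3 had 0.231 in the senescent and 0.232 in the young library. Relative to Cd79a and Cd79b, the ratio of the libraries thus lay between 0.998 and 1.08 for Ighm, Ighd and Iglc3. Of the other 11 listed genes of the B cell list, 10 had a quotient ratio above 1 and 1, Cd55, was below it at 0.771. Their median was 1.501, with 1.28 for Cd37, 1.38 for Cd74, 1.46 for Ms4a1, 2.25 for Ebf1 and 10.2 for Spib, the highest. Before division, the lowest ratios among the 13 listed genes of the B cell list were those of Cd55 (1.68-fold), Cd79a (2.09-fold) and Cd79b (2.37-fold). The count of quotient ratios above 1 thus followed from the choice of divisor, and the 1.45 of Igkc also holds for that divisor only. These ratios have no replicate check.

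**Figure D2:**
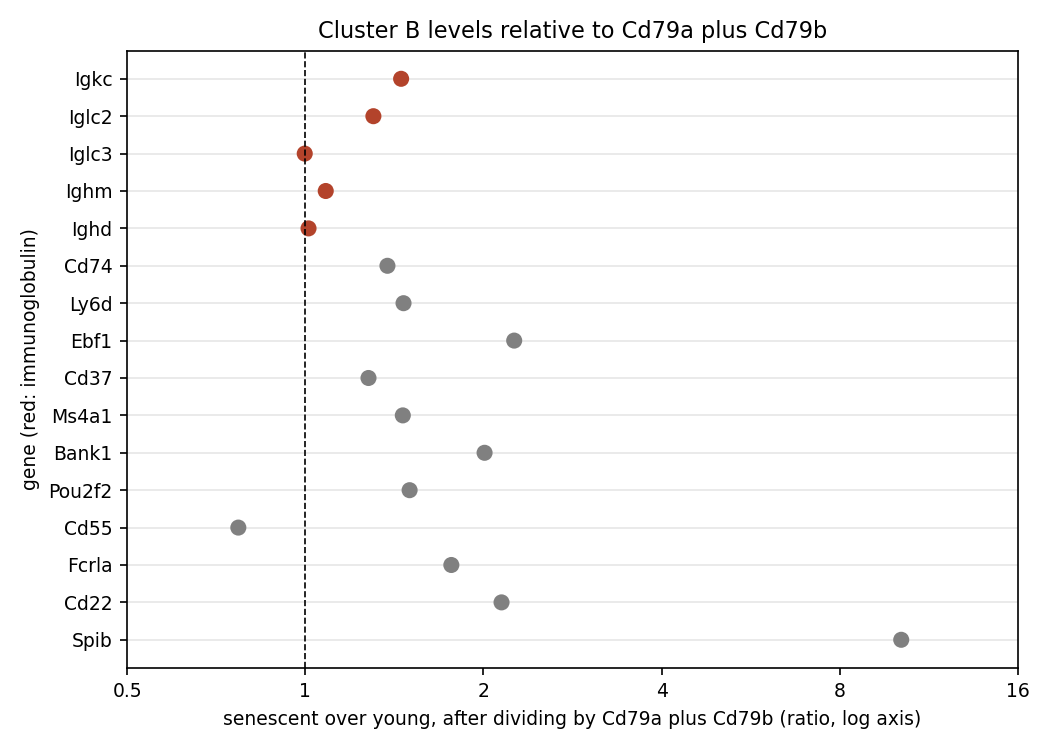
Ratio of the senescent to the young library in cluster B after each level was divided by the summed level of Cd79a and Cd79b (x axis, log axis, dashed line at 1), with 1 point per gene, red for immunoglobulin genes and grey for the other 11 listed genes of the B cell list. Igkc reached 1.45 and Iglc2 1.30, while Iglc3, Ighd and Ighm lay between 0.998 and 1.08 and the grey points between 0.771 and 10.2.

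Outside B, Igkc was the immunoglobulin transcript listed most widely. In the senescent library its level decreased in the order B, T, Marco, PT, endo and LOH. After B at 120.3 came T at 7.77, and Marco (1.99), PT (1.59), endo (1.51) and LOH (1.41) lay within 1.41-fold of each other. The order of these last 4 has no replicate support. In the young library the order was B (38.1), T (0.610), PT (0.501), Marco (0.188), LOH (0.0599) and endo, where Igkc was listed at 0. The 4 clusters that were close in the senescent library were thus spread in the young library, with PT the highest of them.

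**Figure D3:**
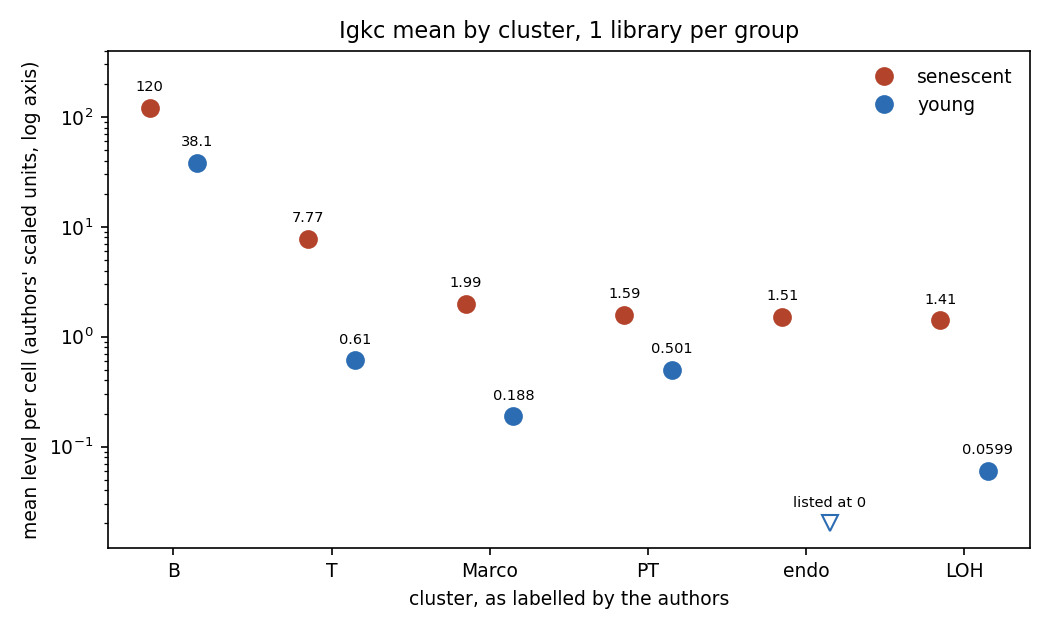
Level of Igkc (y axis, the authors' scaled units, log axis) in the 6 clusters that list it, ordered by the senescent level, with 1 point per library, red for senescent and blue for young. The open triangle marks a level listed at 0, drawn at the foot of the axis. The senescent point is the higher in every cluster, and Marco, PT, endo and LOH lie between 1.41 and 1.99 in the senescent library.

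In PT, the cluster labelled for the proximal tubule, the Igkc level was 1.59 in the senescent and 0.501 in the young library, 3.17-fold higher, and the adjusted p was given as 0 in the authors' deposited table. This ratio was close to the 3.16 of cluster B. It was not unusual for the cluster, since 57.2% of genes listed in PT passed both thresholds as higher and 34.7% had a larger log2 fold change than Igkc.

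In LOH, the cluster labelled for the loop of Henle, the Igkc level was 1.41 in the senescent and 0.0599 in the young library, 23.5-fold higher, with an adjusted p of 3.32e-11 in the authors' deposited table. Only 2.16% of genes listed in LOH passed as higher, and 0.511% had a larger log2 fold change. In endo, Igkc was listed at 0 in the young library and had a level of 1.51 in the senescent library, with an adjusted p of 0.0123 in the authors' deposited table. Of the genes listed in endo, 0.389% passed as higher. The young library had 169 genes listed at 0 in endo and a smallest level above 0 of 0.0365, so no fold is given there. Of the 7 endothelial markers, 0 were listed in endo, so the label could not be checked with them. Proximal tubule markers were listed there. In the senescent library Gpx3 was at 102.0 in endo, 126.5 in PT and 14.2 in Marco. Slc34a1 was at 11.5 in endo, 18.7 in PT and 1.62 in Marco. Kap was at 4.31 in endo, 21.4 in PT and 2.24 in Marco. The levels in endo are therefore not to be read as those of endothelium alone.

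In Marco, which lists all 8 macrophage markers, Igkc had a level of 1.99 in the senescent and 0.188 in the young library, 10.5-fold higher, with an adjusted p of 4.95e-21 in the authors' deposited table. In that cluster 22.9% of listed genes passed as higher, and 5.06% had a larger log2 fold change than Igkc. Ighm had a level of 0.923 in the senescent and 0.449 in the young library in Marco, a 2.05-fold ratio with an adjusted p of 0.936 in the authors' deposited table. The log2 ratio of Ighm, 0.90, was near the median of 0.72 over all genes listed in Marco.

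In T, which lists all 8 T cell markers, Igkc had a level of 7.77 in the senescent and 0.610 in the young library, 12.7-fold higher. Its adjusted p was 1 in the authors' deposited table, at an unadjusted p of 0.00683, so this ratio did not pass. In T, 3.85% of listed genes passed as higher. Of the genes listed in T, 2.24% had a larger log2 fold change than Igkc. All 8 T cell markers also had higher senescent levels there. The median log2 ratio was 1.88 for these markers and -0.40 for all genes listed in T, and the log2 ratio of Igkc was 3.47.

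**Figure D4:**
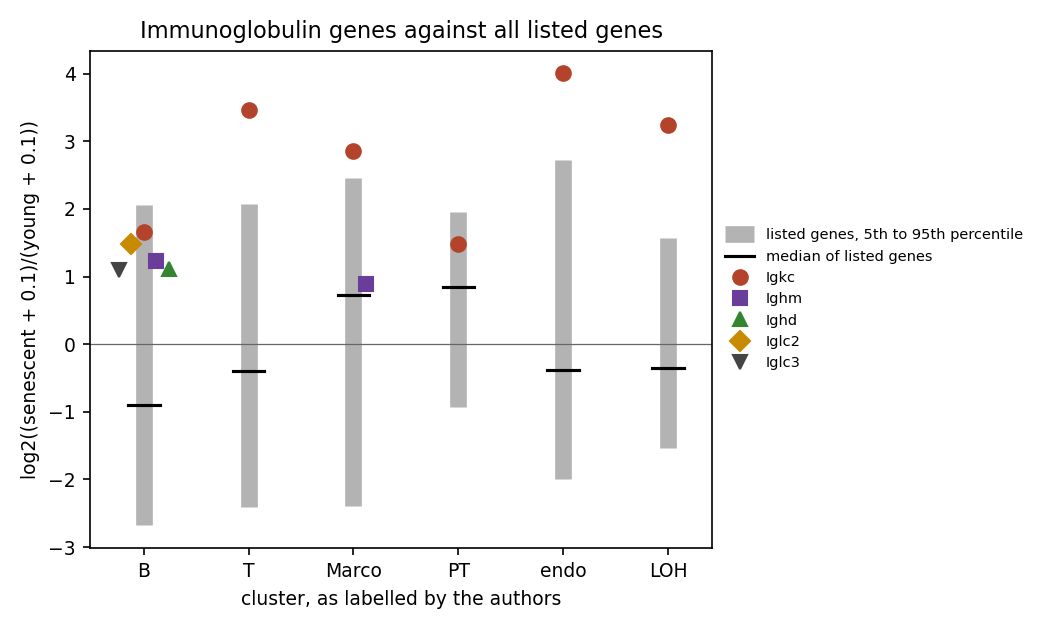
Log2 ratio of the senescent to the young level, after adding 0.1 to each (y axis), for the immunoglobulin genes listed in each cluster (coloured symbols) beside all genes listed there (grey bar, 5th to 95th percentile; black line, median). Igkc lies above the grey bar in T, Marco, endo and LOH and inside it in B and PT, and Ighm in Marco lies near the black line.

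Because B held the highest levels, each level outside B was expressed as a percent of the B level of the same library. In the senescent library, Igkc was at 1.17% in LOH, 1.25% in endo, 1.32% in PT and 1.65% in Marco, and at 6.46% in T. In the young library it was at 0.157% in LOH, 0.495% in Marco, 1.31% in PT and 1.60% in T, and at 0 in endo. PT thus had the same share of the B level in both libraries, whereas LOH, Marco and T had a larger share in the senescent library. Ighm in Marco was at 4.08% of its B level in the senescent and 4.68% in the young library, so its share was about the same while that of Igkc was larger in the senescent library.

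The proportions of both chains in Marco differed from those in B. The ratio of Igkc to Ighm was 5.31 in the senescent and 3.96 in the young library in B, and 2.15 in the senescent and 0.419 in the young library in Marco. In both libraries there was less Igkc per Ighm in Marco than in B. 

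None of the 7 B cell markers was listed outside B, and of the 6 plasma cell markers only Xbp1 was. Among the 22 genes of the wider B cell list, 4 were listed outside B (Cd74, Cd37, Cd55 and Pou2f2), which are not specific to B cells. Cd74 had a level of 2.44 in the senescent and 0.213 in the young library in LOH, 11.4-fold higher, with an adjusted p of 0.00624 in the authors' deposited table. Its level was 7.18 in the senescent and 1.77 in the young library in endo, which did not pass, and 174.9 in the senescent and 38.2 in the young library in Marco, which did. In PT it was 3.33 in the senescent and 2.40 in the young library, under the fold threshold. Pou2f2 was listed in Marco, at 3.41 in the senescent and 0.970 in the young library, and passed as higher. Markers of other cell types were also listed in clusters that list Igkc. Of 6 neutrophil markers, S100a8 and S100a9 were the 2 listed in LOH, endo and PT, with a summed level of 5.42 in the senescent and 0.0575 in the young library in LOH, 3.21 in the senescent and 0 in the young library in endo, and 2.05 in the senescent and 0.629 in the young library in PT. S100a8 and S100a9 passed as higher in PT, as did 57.2% of all genes listed there. Neither passed in LOH or endo. The listed neutrophil markers had a summed level of 6.58 in the senescent and 0.0589 in the young library in Marco. In T it was 0.528 in the senescent and 0.0172 in the young library. In B it was 1.22 in the senescent and 0 in the young library. S100a8 and S100a9 passed as higher in Marco, as did 22.9% of all genes listed there. No neutrophil marker passed in T or B. Of 10 proximal tubule markers, 9 were listed in LOH, all with lower senescent levels, with a summed level of 15.8 in the senescent and 263.7 in the young library. In endo 6 were listed, 1 with a higher and 5 with lower senescent levels, summing to 138.3 in the senescent and 397.7 in the young library. The higher was Gpx3, at 102.0 in the senescent and 52.3 in the young library, and Kap was at 4.31 in the senescent and 293.7 in the young library. All 10 were listed with lower senescent levels in Marco, summing to 24.9 in the senescent and 805.2 in the young library, and in T, summing to 23.8 in the senescent and 645.2 in the young library. Kap alone made up most of each of these young sums, at 202.3 in LOH, 293.7 in endo, 641.8 in Marco and 504.9 in T. Of 8 macrophage markers, C1qa and Lyz2 were listed in LOH and had a summed level of 1.14 in the senescent and 0.0893 in the young library there. In endo only Lyz2 was listed, at 0.348 in the senescent and 0 in the young library. No macrophage marker passed in LOH or endo. In PT only Lyz2 was listed, and its level was lower in the senescent library, at 0.372 in the senescent and 0.508 in the young library, while that of Igkc was higher. The part of B cells, of these transcripts, of free RNA and of doublets in the Igkc levels outside B was not tested.

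Of 12 genes that receive or carry antibody, 7 were listed in Marco, 2 each in LOH, T and B, and 1 each in PT and endo. Pigr encodes the polymeric immunoglobulin receptor, which moves IgA and IgM polymers across epithelia. Its level in LOH was 4.95 in the senescent and 0.405 in the young library, 12.2-fold higher, with an adjusted p of 6.2e-09 in the authors' deposited table. Its level in PT was 2.02 in the senescent and 0.223 in the young library, 9.05-fold higher, with an adjusted p given as 0 in the authors' deposited table. In Marco and T its senescent levels were lower and did not pass. The median log2 ratio over all listed genes was -0.35 in LOH and 0.85 in PT.

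In Marco, 5 of the 7 listed genes of immunoglobulin receptors and transport passed as higher in the authors' deposited table, as did 22.9% of all genes listed there. All 8 macrophage markers passed as higher in Marco as well, with a summed level of 178.7 in the senescent and 30.3 in the young library. The 5 receptor and transport genes that passed were Fcer1g and the IgG receptor genes Fcgr1, Fcgr2b, Fcgr3 and Fcgr4. Fcer1g, the shared signalling chain of Fc receptors, had 49.7 in the senescent and 5.20 in the young library. Fcgr2b, the inhibitory receptor, had 6.36 in the senescent and 0.743 in the young library, and Fcgr4 had 5.20 in the senescent and 0.238 in the young library. Fcgr3 had 4.13 in the senescent and 0.702 in the young library, and Fcgr1 had 2.24 in the senescent and 0.241 in the young library. The median log2 ratio was 2.78 for the 7 receptor and transport genes, 2.60 for the 8 macrophage markers and 0.72 for all genes listed in Marco. In B, Fcgr2b had 1.61 in the senescent and 0.147 in the young library, and Fcgrt, which encodes the neonatal Fc receptor that salvages IgG, had 0.542 in the senescent and 0.809 in the young library. Neither passed the adjusted p. In T, Fcgrt fell to 0.245 in the senescent library, against 1.17 in the young library, with an adjusted p of 7.55e-07 in the authors' deposited table.

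Of 15 genes of B cell attraction and survival, 5 were listed in Marco, all with higher senescent levels, and 4 passed in the authors' deposited table. Of all genes listed in Marco, 58.3% had a higher mean and 22.9% passed as higher, and all 8 macrophage markers did. Cxcl13, which attracts B cells, was listed at 0 in the young library and had a level of 7.14 in the senescent library. The other 3 were Tnfrsf13b, Cxcr4 and Il6ra. Tnfsf13b, which encodes the B cell survival factor BAFF, had a level of 0.370 in the senescent and 0.0669 in the young library and did not pass. In B, Cxcr4, a homing receptor, had 2.15 in the senescent and 0.429 in the young library, and Ltb (lymphotoxin beta) had 6.50 in the senescent and 3.65 in the young library. Neither passed the adjusted p. Ltb was also listed in T, at 7.85 in the senescent and 2.47 in the young library, and did not pass there.

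Of 20 genes of plasma cells and secretion, 4 were listed in B, 2 with higher and 2 with lower senescent means, and 0 passed in the authors' deposited table. Their median log2 ratio was -0.21, against -0.89 for all genes listed in B, of which 28.2% had a higher mean. Herpud1, of protein degradation at the endoplasmic reticulum, had 1.03 in the senescent and 1.83 in the young library, and Creld2 had 0.214 in the senescent and 0.409 in the young library. The higher pair was Xbp1 and Txndc5, and Txndc5 had 0.371 in the senescent and 0.289 in the young library. In Marco 4 of the 7 listed genes of this list passed as higher and 1 (Eaf2) as lower, beside 22.9% higher and 23.6% lower among all genes listed there, with Ssr4 at 4.48 in the senescent and 2.04 in the young library. In PT 4 of 6 had higher and 2 lower senescent means, and none reached the fold threshold. Of all genes listed in PT, 78.4% had a higher mean and 57.2% passed both thresholds as higher. In T 3 of 7 had higher and 4 lower senescent means, and none passed both thresholds. Of all genes listed in T, 44.8% had a higher mean and 3.85% passed as higher.

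Of 14 genes of rearrangement and class switching, 2 were listed in B, the cytokine receptor genes Il4ra and Il21r. Both were listed at 0 in the young library, with 0.531 for Il4ra and 0.549 for Il21r in the senescent library, and neither passed. Rag1 and Rag2, which encode the recombinase that assembles immunoglobulin genes, were not listed in any cluster. In Marco all 5 listed genes of this list, the receptor genes Il4ra, Il21r, Ifngr1, Tgfbr1 and Tgfbr2, passed as higher in the authors' deposited table, as did 22.9% of all genes listed there and all 8 macrophage markers.

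Among genes listed in every cluster that lists Igkc, those whose levels followed it most closely over clusters and libraries were ribosomal protein genes. No gene of the B cell list was listed in all 6 clusters, so none of that list could be compared. Among the 176 other genes listed in the same 6 clusters, the highest Pearson correlations with Igkc of log2 levels, after adding 0.1, over the 12 means were those of Rpl22 (0.832), Rps19 (0.825), Rpl36a (0.795), Rps9 (0.783) and Rpl23 (0.769). The 12 means share 2 libraries, and these genes differed far less between clusters than Igkc. Rpl22, for example, had a level of 25.1 in the senescent and 13.7 in the young library in B, and 9.33 in the senescent and 6.86 in the young library in LOH.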

How the data were processed

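RNA of single kidney cells was sequenced in 1 senescent and 1 young droplet library. Per the submitters' processing notes, Cell Ranger 2.1.1 and build mm10 were used. Cell filters, treatment of doublets and free RNA, clustering and the authors' test were not stated there or in the labels. The deposited table holds a signal that the authors averaged per cluster, with an unstated scale, so depth is unknown and no counting interval was computed. Its log2 fold changes are, within 0.01, those of the senescent to young ratio once the authors added 0.0001 to both means (1 entry differed, none of an immunoglobulin gene). The deposited p-values are all under 0.05. The adjusted p-values that lie below 1 equal the p-value times about 32574, and an adjusted p of 1 is the upper limit of that product.

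Computed here were ratios and log2 ratios with a pseudocount of 0.1, counts past an adjusted p of 0.05 and an absolute log2 fold change of 1, list medians, and correlations across clusters. The genes and lists were chosen with earlier results of these data known. All immunoglobulin genes are named. From other lists, those listed in B and up to 4 of the highest level elsewhere were to be named; in Marco, Tnfsf13b, Fcgr1, Il21r, Eaf2 and Pigr, like Kap and the other cell type markers, fall outside this and were picked with their values in view. All 10 symbols matched RefSeq's annotation of GRCm38. The code was tested on simulated data. Alternatives were other thresholds, pseudocounts and scalings. Python 3.11.15, numpy 2.4.6 and pandas 2.3.3 were used.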

Additional observations from a re-analysis of the deposited data

Results flagged for a closer look

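Some genes of the lists on B cells, antibody secretion and antibody transport had a higher senescent level in one cluster and a lower one in another. The difference between the clusters was not tested, as each group had 1 library. Each value is the log2 ratio, after adding 0.1, in the first cluster minus that in the second. For genes of secretion, Xbp1 differed by 3.04 (1.09 in Marco and -1.95 in Neutro), Herpud1 by 2.52 (1.76 in endo and -0.77 in B), Sec11c by 1.90 (1.36 in Marco and -0.55 in PT) and Ssr4 by 1.47 (1.10 in Marco and -0.37 in PT). For Sec11c and Ssr4, the authors' deposited table gave an adjusted p under 0.05 in both clusters. Pigr differed by 4.05 (3.32 in LOH and -0.73 in T), Fcgrt by 2.31 (0.43 in Marco and -1.88 in T), Cd55 by 2.12 (0.72 in B and -1.40 in T) and Cxcl12 by 1.95 (0.78 in PT and -1.17 in T). Tnfrsf13b differed by 8.21 (1.71 in Marco and -6.50 in Neutro), where it was listed at 0 in the senescent and at 8.96 in the young library and did not pass the adjusted p. No immunoglobulin gene had opposite directions in different clusters.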

How the results depend on the processing

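The count of 6 immunoglobulin entries called higher was 4 at an adjusted p of 0.01, 11 with no adjusted p, 3 at an absolute log2 fold change of 2, and 6 with no minimum fold or with a minimum level of 0.1. The count called lower was 0 in each. The median log2 ratio of 1.23 in B was 1.16 with a pseudocount of 1, 1.24 with 0.01 and 1.24 with the authors' log2 fold changes. After division by Cd79a plus Cd79b, chosen after seeing the data, it was 0.11. The median of 1.88 over the 2 genes in Marco was 0.87, 2.18 and 2.22 with a pseudocount of 1, of 0.01 and in the authors' values. For Igkc in LOH the log2 ratio of 3.24 was 1.18 with a pseudocount of 1, 4.34 with 0.01 and 4.55 in the authors' values, and in endo the ratio of 4.01 was 1.33, 7.24 and 13.88, so those sizes depend on the pseudocount. For Igkc in PT, LOH, endo and T, 12 values moved under another pseudocount or the authors' values. Their sign could not change, since adding the same amount to both levels leaves the higher one higher. Dividing each mean by the sum of listed means, a sum that also depends on how many genes a cluster lists, gave Igkc at 1.35% of its B level in the senescent and 1.42% in the young library in PT, 1.89% in the senescent and 0.255% in the young library in LOH, 1.43% in the senescent and 0.451% in the young library in Marco, 6.02% in the senescent and 1.53% in the young library in T, and 3.45% in the senescent library in endo. No paired analysis was possible because each group has 1 library. Leaving out a library was not possible for the same reason. Depth is unknown, so precision could not be judged from it.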
